A study of Xenopus tropicalis with 12 samples.

Results

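The Ventx repressor genes were followed through the early gastrula of Xenopus tropicalis as 4 genes in 2 subgroups, ventx1.1 (Xetrov90017641) with ventx1.2 (Xetrov90017638), and ventx2.1 (Xetrov90017642) with ventx2.2 (Xetrov90017640). They were taken by name from the study's transcription factor (TF) catalog, of which 1197 genes had a gene model among the 26550 in the tables. The questions were how steeply each subgroup rose from dorsal to ventral, where its genes stood at the animal and vegetal poles, and how the dissected regions compared with the whole embryo.

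Ventx proteins are homeodomain repressors that act downstream of bone morphogenetic proteins (Bmps), the secreted ligands that are active on the ventral side of the frog gastrula. Work in Xenopus laevis placed vent genes among the early targets of Bmp signaling, with ventx2 bound and activated by the Smad effectors of the pathway. Their products shut off genes of Spemann's organizer, such as gsc, outside the dorsal lip, and organizer products that bind Bmps keep vent genes low dorsally. The ventx genes lie together on chromosome 7, where RefSeq lists 6 of them side by side in the order ventx3.2, ventx1.2, ventx3.1, ventx2.2, ventx1.1 and ventx2.1, with no other gene between them.

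The libraries came from early gastrulae, stage 10 to 10.25 of the Nieuwkoop and Faber series by the sample labels (the series description names a slightly later stage), for which no mutation, transgene or treatment is named. Embryos were cut into 5 regions, the animal cap (enriched for ectoderm), the dorsal, lateral and ventral marginal zones (enriched for mesoderm) and the vegetal mass (enriched for endoderm), and whole embryos of the same age were taken alongside. Each of these 6 groups had 2 libraries, made from 2 clutches. About 30 explants of a region were pooled for a library (about 60 for the lateral zone). Replicate 1 and replicate 2 were taken to mark the separate clutches. PolyA-selected RNA was sequenced without strand information as single 50-base reads.

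Library totals ranged from 14634582 to 29166548 expected counts, which are read counts that RSEM assigned to genes. Levels are given as TPM, reads per gene length scaled to the same total in each library. The labels of the animal, dorsal and vegetal pieces were checked with 1 marker each and the marginal zone with t, and no marker told the lateral zone from the ventral one. The ectodermal forkhead gene foxi1 was highest in the animal cap, gsc in the dorsal marginal zone, the endodermal Sox gene sox17a in the vegetal mass and the mesodermal T-box gene t in the marginal zones, in both clutches, with t at 893.31 and 813.85 TPM ventrally and 828.45 and 757.68 laterally. The dorsal marker gsc was at 309.64 and 470.2 TPM in the dorsal libraries and also at 159.54 and 262.22 in the vegetal ones, and whether dorsal tissue was carried into the vegetal cut was not tested. In tissue of this kind, fewer expressing cells and less RNA per cell cannot be told apart.

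All 4 genes were abundant and highest in the ventral marginal zone. The level of ventx1.1 there was 613.72 and 733.01 TPM in replicates 1 and 2, a mean of 673 ± 84.4 (SD, n = 2). It was 285.56 and 363.87 TPM laterally and only 39.3 and 15.32 dorsally. The animal cap held 175.33 and 172.96 TPM of ventx1.1, the vegetal mass 219.5 and 356.68, and the whole embryo 278.32 and 385.42. Ranked from low to high, the regions were dorsal, animal, vegetal, lateral and ventral in both clutches, and the lateral and vegetal values overlapped.

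The second gene of the subgroup, ventx1.2, had the same form at a lower level. It reached 381.52 and 445.9 TPM ventrally, 194.34 and 193.51 laterally, and 25.86 and 12.51 dorsally. It stood at 89.9 and 81.87 TPM in the animal cap, 173.92 and 234.47 in the vegetal mass, and 171.58 and 224.27 in the whole embryo. The vegetal and lateral values changed places between the clutches, and the other ranks were the same in both.

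The ventx2 genes were less low dorsally. The level of ventx2.1 was 666.75 and 771.11 TPM ventrally, 453.91 and 533.04 laterally, and 233.98 and 189.28 dorsally. It was 419.78 and 345.01 TPM in the animal cap, 225.29 and 391.36 in the vegetal mass, and 497.17 and 601.91 in the whole embryo. Its vegetal values overlapped both the dorsal and the animal ones, so those neighbors in the ranking did not separate.

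For ventx2.2 the ventral libraries held 538.81 and 505.16 TPM, the lateral ones 395.01 and 401.55, and the dorsal ones 210.5 and 149.27. The animal cap gave 289.38 and 247.78 TPM, the vegetal mass 191.68 and 257.49, and the whole embryo 429.58 and 465.86. In replicate 1 the vegetal mass was the lowest region for both ventx2 genes, whereas in replicate 2 it was the dorsal marginal zone.

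**Figure D1:**
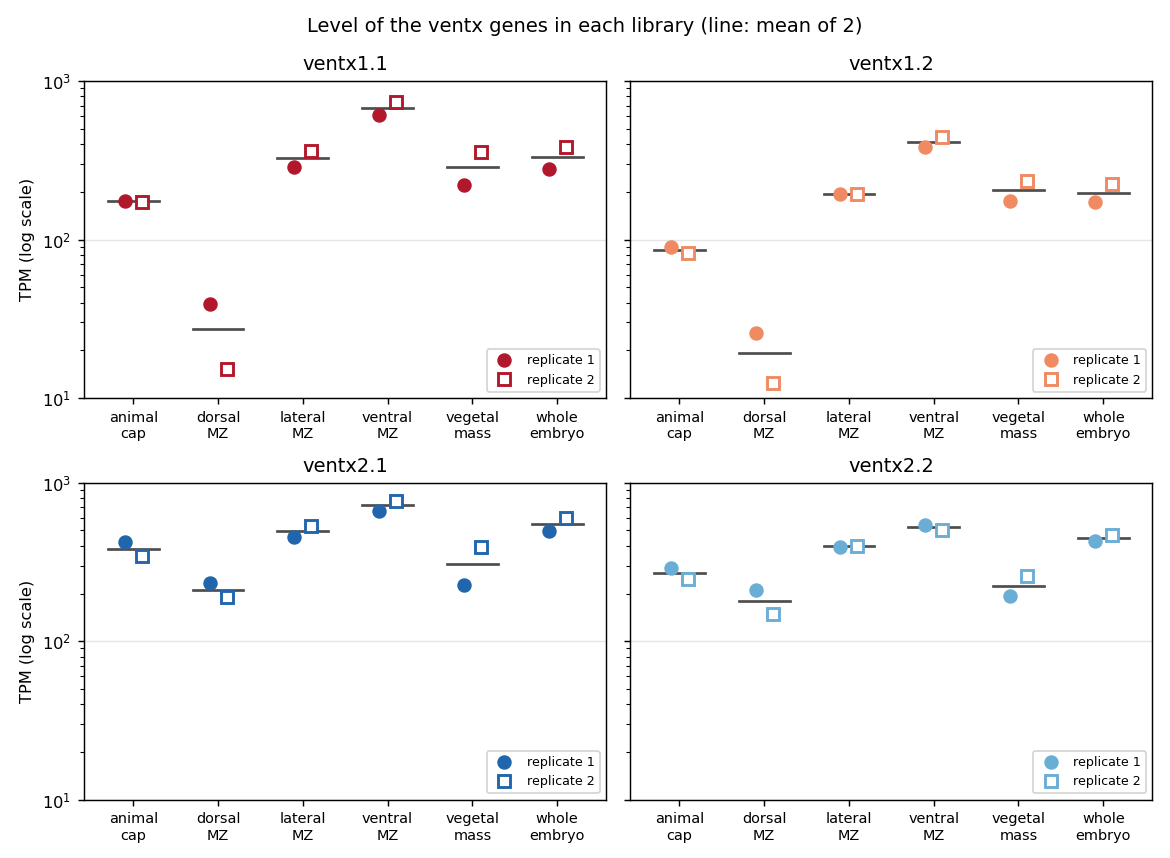
TPM (log axis) of each of the 4 ventx genes in the 12 libraries by group, with circles for replicate 1, squares for replicate 2 and a line at the mean of both; MZ is marginal zone. The dorsal points of ventx1.1 (39.3 and 15.32 TPM) and ventx1.2 (25.86 and 12.51 TPM) lie far below all their other points, and those of ventx2.1 and ventx2.2 do not.

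The copies were read with a caution that bears on each of them. RSEM divides reads that fit several copies among them, and all 4 genes had expected counts that were not whole numbers in 12 of 12 libraries (tolerance 0.005), as did 59.2% of all values above 0 in the tables. How much of a value came from a neighboring copy was not tested. The expected counts ran from 108.76 for ventx1.2 in the dorsal library of replicate 2 to 10440.1 for ventx2.1 in the ventral library of replicate 1.

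The steepness from dorsal to ventral separated the subgroups. Ventral TPM exceeded dorsal TPM 15.6-fold in replicate 1 and 47.8-fold in replicate 2 for ventx1.1, and 14.8-fold and 35.6-fold for ventx1.2. The rise was 2.85-fold and 4.07-fold for ventx2.1, and 2.56-fold and 3.38-fold for ventx2.2. The dorsal marginal zone thus kept 2.09% to 6.78% of the ventral level of a ventx1 gene and 24.5% to 39.1% of that of a ventx2 gene, with no overlap between the subgroups.

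In edgeR's quasi-likelihood test on the expected counts of the 10 region libraries, the log2 difference between ventral and dorsal was 4.41 for ventx1.2 (SE 0.38, adjusted p = 0.0346). The difference of ventx1.1 was 4.62 (SE 0.52, adjusted p = 0.0556). Those of ventx2.1 and ventx2.2 were 1.71 (SE 0.36, adjusted p = 0.342) and 1.48 (SE 0.25, adjusted p = 0.161). Thus 1 of the 4 genes passed, against 0.0127% of the 15727 genes tested that were called higher ventrally.

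The calls changed with the clutch term. With the replicate number as a block, which removes the difference between clutches, all 4 genes passed, against 0.432% of all genes called higher ventrally. The blocked differences were 4.50 for ventx1.1 (adjusted p = 0.00561), 4.33 for ventx1.2 (adjusted p = 0.00105), 1.68 for ventx2.1 (adjusted p = 0.0202) and 1.47 for ventx2.2 (adjusted p = 0.00426). Single dorsal libraries set the size of the ventx1 difference. Without the dorsal library of replicate 1 the blocked difference of ventx1.1 was 5.53, and without that of replicate 2 it was 3.88. Without 1 of the 4 dorsal and ventral libraries, the difference of ventx1.2 in the fit with no block ran from 4.09 to 4.84. With the block that of ventx2.1 was 1.45 without the dorsal library of replicate 2. It was 1.71 without the ventral library of replicate 1 and 1.66 without that of replicate 2. These fits leave 1 library in a group, so no call is read from them.

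The rise was not even along the way. Between the dorsal and lateral zones, ventx1.1 gained 7.27-fold and 23.8-fold in the replicates and ventx1.2 gained 7.52-fold and 15.5-fold. The same step was 1.94-fold and 2.82-fold for ventx2.1 and 1.88-fold and 2.69-fold for ventx2.2. From lateral to ventral the ventx1 genes rose a further 1.96-fold to 2.30-fold, and the ventx2 genes 1.26-fold to 1.47-fold. The lateral zone had therefore completed 72.2% and 81.9% of the log2 rise of ventx1.1, 74.9% and 76.6% of that of ventx1.2, 63.3% and 73.7% of that of ventx2.1, and 67.0% and 81.2% of that of ventx2.2. The subgroups overlapped in this share, although not in the height of the rise.

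**Figure D2:**
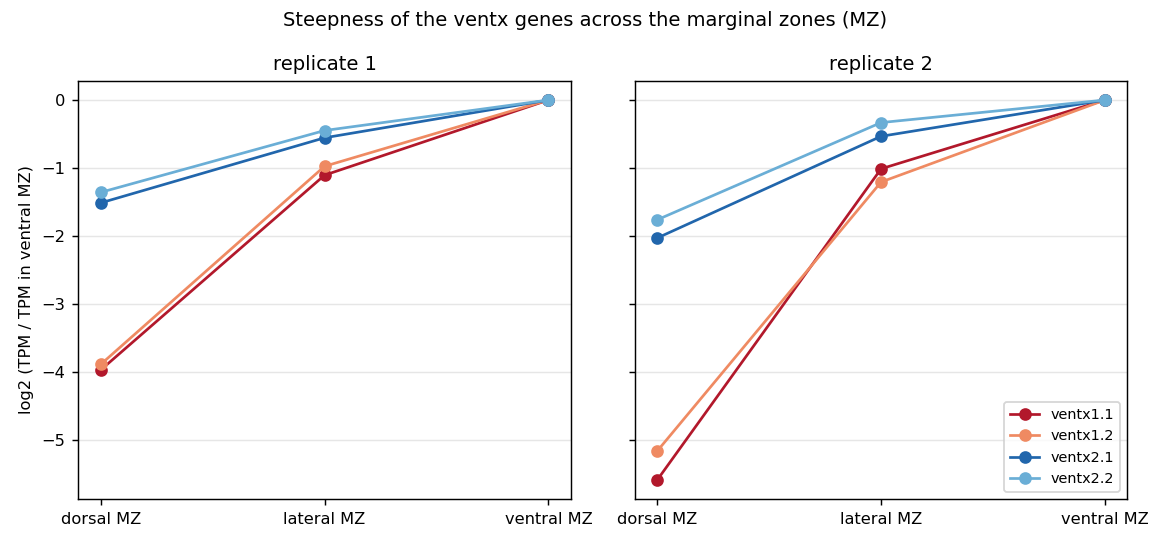
Log2 ratio of TPM in each marginal zone (MZ) to TPM in the ventral one, for each gene, in replicate 1 (left) and replicate 2 (right). The ventx1 lines start 3.96 and 3.88 below zero in replicate 1 and 5.58 and 5.16 below it in replicate 2, while the ventx2 lines start 1.36 to 2.03 below it.

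Neither step reached a call in edgeR without the block. Lateral against dorsal gave log2 differences of 3.58 for ventx1.1 (adjusted p = 0.368), 3.31 for ventx1.2 (adjusted p = 0.261), 1.18 for ventx2.1 (adjusted p = 1) and 1.1 for ventx2.2 (adjusted p = 0.794). That is 0 of 4 genes, and 0% of all genes were called higher laterally. All 4 were at an unadjusted p under 0.05, beside 64 of 15727 genes higher laterally. DESeq2 called 3 of the 4, beside 23 of 15117 genes called higher laterally. The count in limma was 0, beside 1 and 2 of 15727 genes at pseudocounts of 1 and 0.1. With the block edgeR called 3, ventx1.1 (adjusted p = 0.0304), ventx1.2 (adjusted p = 0.0075) and ventx2.2 (adjusted p = 0.0371), and not ventx2.1 (adjusted p = 0.159), against 0.153% of all genes. Without the lateral library of replicate 1 the blocked differences were 3.69 for ventx1.1, 3.32 for ventx1.2 and 1.19 for ventx2.2. Without that of replicate 2 they were 3.24, 3.18 and 0.99.

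Ventral against lateral gave 1.04, 1.1, 0.53 and 0.38 for ventx1.1, ventx1.2, ventx2.1 and ventx2.2, with SEs of 0.24 to 0.45. None of the 4 was called by edgeR, with or without the block (lowest adjusted p = 1 without it and 0.92 with it). At an unadjusted p under 0.05 there were 1 and 2 of them, beside 26 and 207 of 15727 genes higher ventrally. DESeq2 and limma called 0, beside 6 and 0 of 15727 genes called higher ventrally. Over all genes edgeR called 0% higher ventrally without the block and 0.0254% with it. A fit with the block on the 4 lateral and ventral libraries alone called all 4 genes, beside 98 of 14737 genes called higher ventrally. This step is thus not settled by these libraries, although every ventral value lay above every lateral value for each gene.

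A direct comparison of the subgroups used ratios within a library, which do not depend on scaling between libraries. The slope of the log2 ratio per zone, from dorsal through lateral to ventral, was 1.5 for ventx1.1 over ventx2.1 (SD of the replicate slopes 0.389, n = 2) and 1.61 for ventx1.1 over ventx2.2 (SD 0.429). It was 1.38 for ventx1.2 over ventx2.1 (SD 0.268) and 1.48 for ventx1.2 over ventx2.2 (SD 0.308). Each of these 4 ratios gave p = 0.0222 in a two-sided exact permutation test over 90 assignments of the 6 libraries, the smallest value possible, and 0.0333 after Benjamini-Hochberg adjustment over 6 pairs. With libraries exchanged only within a clutch the exact test cannot go below 0.0556, which all 4 ratios reached (adjusted p = 0.0667). The subgroups were known to differ in this way when they were chosen, so these values measure the difference and are not independent support for it.

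Copies of the same subgroup had smaller slopes. The slope of ventx1.1 over ventx1.2 was 0.127 (0.0410 and 0.212 in the replicates, exact p = 0.244), and that of ventx2.1 over ventx2.2 was 0.106 (0.0774 and 0.134, exact p = 0.222), with an adjusted p of 0.244 for both. With libraries exchanged only within a clutch, ventx2.1 over ventx2.2 also reached the smallest possible exact p (0.0556, adjusted p = 0.0667), as the ratios between subgroups did, and ventx1.1 over ventx1.2 had an exact p of 0.389. Over all 12 libraries the ratio of ventx1.1 to ventx1.2 ran only from 1.22 to 2.11 and that of ventx2.1 to ventx2.2 from 1.11 to 1.53. The ratio of ventx1.1 to ventx2.1, in contrast, ran from 0.0809 in the dorsal library of replicate 2 to 0.974 in the vegetal library of replicate 1, a 12-fold range.

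The makeup of the summed RNA of the 4 genes followed from this. That sum leaves out ventx3.1 and ventx3.2, which together held 387.72 and 742.85 TPM in the vegetal libraries. The 4 genes summed to 438 ± 101 TPM dorsally (SD, n = 2 here and below) and 2328 ± 180 TPM ventrally, or 0.0438% and 0.233% of all TPM. The ventx2 genes made up 89.8 ± 3.67% of that sum dorsally, 63.3 ± 0.880% laterally and 53.4 ± 1.98% ventrally. They made up 71.4 ± 2.01% in the animal cap, 51.9 ± 0.618% in the vegetal mass and 65.5 ± 2.59% in the whole embryo. Dorsal libraries were highest and animal libraries next, with no overlap with any other group, while the ventral and vegetal libraries overlapped near an even split.

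**Figure D3:**
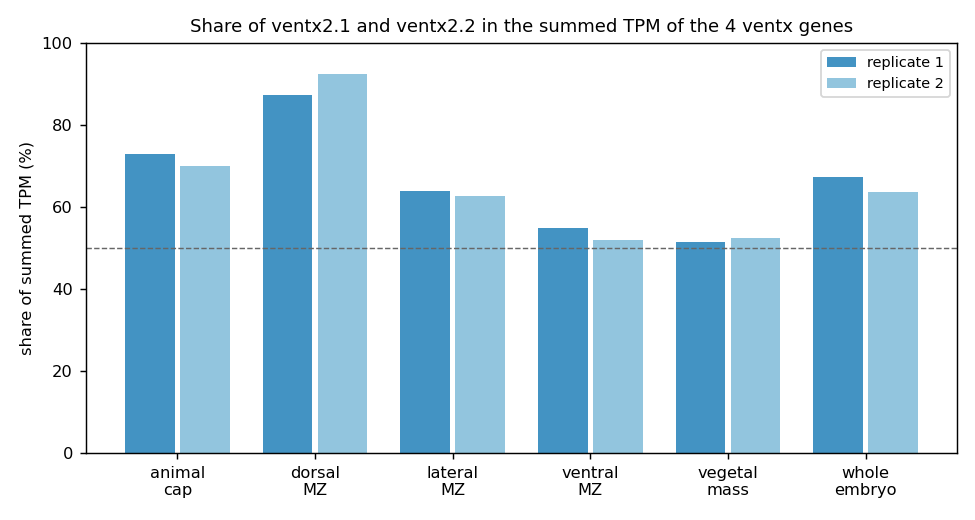
Share (%) of ventx2.1 and ventx2.2 in the summed TPM of the 4 ventx genes, 1 bar for each library, with a dashed line at an even split. The dorsal bars are at 87.2% and 92.4%, and the vegetal bars at 51.5% and 52.3%.

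At the poles the subgroups took different courses relative to each other. Animal caps held 18.4% to 28.6% of the ventral level of a ventx1 gene and 44.7% to 63.0% of that of a ventx2 gene. The vegetal mass held 33.8% to 52.6% of the ventral level of all 4 genes, with both subgroups mixed in that range. The ventx1 genes were therefore higher vegetally than animally in both clutches, 1.25-fold and 2.06-fold for ventx1.1 and 1.93-fold and 2.86-fold for ventx1.2. For ventx2.1 the same ratio was 0.537 and 1.13, and for ventx2.2 it was 0.662 and 1.04, so that these genes were lower vegetally in replicate 1 and slightly higher in replicate 2.

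Vegetal mass against animal cap gave edgeR log2 differences of 0.62 for ventx1.1 (SE 0.45, adjusted p = 0.523) and 1.14 for ventx1.2 (SE 0.34, adjusted p = 0.093). They were -0.40 for ventx2.1 (SE 0.35, adjusted p = 0.613) and -0.37 for ventx2.2 (SE 0.24, adjusted p = 0.466). No member passed, where 8.04% of all genes were called in either direction. At an unadjusted p under 0.05 there was 1 member, beside 3405 of 15727 genes in either direction. DESeq2 called 1, beside 2540 of 15727 genes in either direction. The count in limma was 0, beside 1356 and 1336 of 15727 genes at pseudocounts of 1 and 0.1. With the block ventx1.2 alone passed in edgeR (1.11, adjusted p = 0.0133), against 40.6% of all genes. With 1 of the compared libraries left out, the blocked difference of ventx1.2 ran from 0.84 to 1.36. Without the vegetal library of replicate 1 the difference of ventx2.1 was 0.02, with no block. Contrasts with the vegetal mass moved with the scaling, since library size in place of TMM factors shifted the median over all genes from 0.03 to 0.18 here. The values given are on the TMM scale, and the signs held on both.

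The ventral marginal zone exceeded the animal cap by log2 differences of 1.92 for ventx1.1 (adjusted p = 0.233), 2.24 for ventx1.2 (adjusted p = 0.0449), 0.89 for ventx2.1 (adjusted p = 0.934) and 0.93 for ventx2.2 (adjusted p = 0.321). Thus 1 of 4 passed, against 0.744% of all genes. With the block ventx1.2 (adjusted p = 0.00368) and ventx2.2 (adjusted p = 0.0182) passed, against 2.47% of all genes, while ventx1.1 was just outside (adjusted p = 0.0501). The block did not bring in ventx2.1 (adjusted p = 0.123). Leaving out 1 compared library gave blocked differences of 1.81 to 2.01 for ventx1.1 and 2.08 to 2.38 for ventx1.2. For ventx2.1 and ventx2.2 they were 0.61 to 1.16 and 0.82 to 1.04.

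Against the vegetal mass the ventral excess was of similar size in all 4 genes, with log2 differences of 1.30, 1.11, 1.30 and 1.29 in the order ventx1.1, ventx1.2, ventx2.1 and ventx2.2. None passed without the block (adjusted p = 0.0502 to 0.255), against 1.14% of all genes. All 4 were at an unadjusted p under 0.05, beside 1056 of 15727 genes higher ventrally. DESeq2 called 3, beside 623 of 15117 genes called higher ventrally, and limma 1, beside 205 of 15727 at a pseudocount of 1. All 4 passed with it, ventx2.2 at an adjusted p of 0.000878, ventx2.1 at 0.00637, ventx1.2 at 0.0197 and ventx1.1 at 0.0458, against 12.7% of all genes. With 1 compared library left out, the blocked differences were 1.01 to 1.72 for ventx1.1 and 0.87 to 1.40 for ventx1.2. For ventx2.1 and ventx2.2 they were 0.98 to 1.76 and 1.05 to 1.62.

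The dorsal marginal zone, not a pole, was the low point of the ventx1 genes. Animal caps exceeded it 4.46-fold and 11.3-fold in TPM for ventx1.1 and 3.48-fold and 6.54-fold for ventx1.2, but 1.79-fold and 1.82-fold for ventx2.1 and 1.37-fold and 1.66-fold for ventx2.2. In edgeR the log2 differences were 2.70 for ventx1.1 (adjusted p = 0.0519), 2.16 for ventx1.2 (adjusted p = 0.0341), 0.82 for ventx2.1 (adjusted p = 0.928) and 0.56 for ventx2.2 (adjusted p = 0.961). This was 1 of 4, against 0.134% of all genes. With the block both ventx1 genes passed (adjusted p = 0.0151 for ventx1.1 and 0.00537 for ventx1.2) and neither ventx2 gene did (adjusted p = 0.137 and 0.153), against 1.58% of all genes. The blocked differences ran from 1.985 to 3.629 for ventx1.1 and from 1.657 to 2.796 for ventx1.2 when 1 compared library was left out.

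The vegetal mass exceeded the dorsal zone 5.59-fold and 23.3-fold for ventx1.1 and 6.73-fold and 18.7-fold for ventx1.2. For ventx2.1 this ratio was 0.963 and 2.07, and for ventx2.2 it was 0.911 and 1.72. The edgeR log2 differences were 3.31 for ventx1.1 (SE 0.49, adjusted p = 0.0253) and 3.30 for ventx1.2 (SE 0.36, adjusted p = 0.0108), with 0.42 for ventx2.1 (SE 0.35, adjusted p = 0.669) and 0.19 for ventx2.2 (SE 0.24, adjusted p = 0.833). Thus 2 of 4 passed, against 1.23% of all genes, and the same 2 passed with the block, against 16.9% of all genes. Without the vegetal library of replicate 2 the differences of ventx2.1 and ventx2.2 turned to -0.18 and -0.17. Leaving out 1 compared library gave blocked differences of 2.53 to 4.17 for ventx1.1 and 2.75 to 3.89 for ventx1.2. Without the dorsal library of replicate 2 the blocked difference of ventx2.2 was -0.08.

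**Figure D4:**
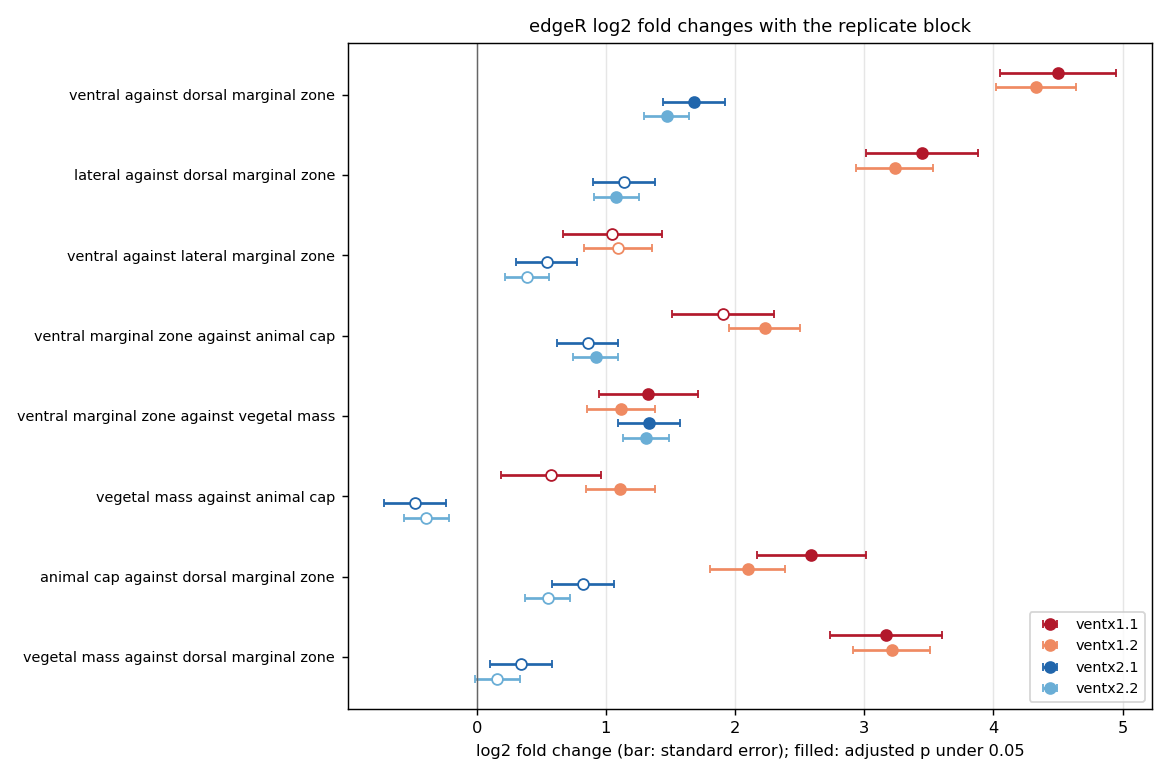
Log2 fold changes from edgeR for the 4 genes in 8 comparisons of regions, fitted with the replicate block; bars are standard errors and filled points have an adjusted p under 0.05. The ventx1 genes lie to the right of the ventx2 genes in each comparison with the dorsal marginal zone, and all 4 lie together at 1.12 to 1.34 for ventral marginal zone against vegetal mass.

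In the whole embryo the ventx2 genes stood above the average of their parts. Whole-embryo TPM was 1.24 and 1.35 times the plain mean of the 5 regions for ventx2.1, and 1.32 and 1.49 times for ventx2.2. For ventx1.1 the ratio was 1.04 and 1.17, and for ventx1.2 it was 0.991 and 1.16. Among the regions, only the ventral marginal zone exceeded the whole embryo for ventx2.1 and ventx2.2, in both clutches. The lateral zone also did for both ventx1 genes in replicate 1, and the vegetal mass for ventx1.2 in both. The plain mean gives each region the same weight whatever its share of the embryo's RNA, so no value of 1 is implied.

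On the log scale of the test the whole embryo exceeded the mean of the regions by 0.75 for ventx1.1, 0.70 for ventx1.2, 0.49 for ventx2.1 and 0.59 for ventx2.2. None passed in edgeR (adjusted p = 0.798 to 1), against 0.0126% of all genes. At an unadjusted p under 0.05 there were 2, beside 431 of 15848 genes higher in the whole embryo. DESeq2 and limma called none of the members, beside 82 of 14926 and 0 of 15848 genes called higher. With the block ventx2.2 passed (0.58, adjusted p = 0.0446), against 1.69% of all genes, and ventx1.1, ventx1.2 and ventx2.1 did not (adjusted p = 0.433, 0.212 and 0.332). With 1 library left out, the blocked differences ran from 0.51 to 0.92 for ventx1.1 and from 0.45 to 0.87 for ventx1.2. For ventx2.1 and ventx2.2 they ran from 0.41 to 0.56 and from 0.49 to 0.67. A mean of logs lies below the log of a mean most where regions differ most, and against the geometric mean of the regions the TPM ratio was 1.45 and 2.02 for ventx1.1, 1.38 and 1.94 for ventx1.2, 1.35 and 1.5 for ventx2.1, and 1.43 and 1.63 for ventx2.2. The subgroups overlapped in replicate 1 on this measure, and the ventx1 genes were higher in replicate 2.

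The clutches differed by region. In replicate 2 the dorsal level was 0.390 times that of replicate 1 for ventx1.1, 0.484 for ventx1.2, 0.809 for ventx2.1 and 0.709 for ventx2.2. The vegetal level was 1.62, 1.35, 1.74 and 1.34 times as high in the same order, and the animal level 0.986, 0.911, 0.822 and 0.856 times. In these regions all 4 genes thus moved together, and in opposite directions between the dorsal and the vegetal piece. Laterally the ratios were 1.27, 0.996, 1.17 and 1.02 in the same order, and ventrally 1.19, 1.17, 1.16 and 0.938. There the genes did not all move the same way. The marker gsc was 1.52 times as high in the dorsal library of replicate 2 as in that of replicate 1, and its part in the dorsal difference was not tested. Each region has 1 library in each clutch, so the clutch, the cut and the library cannot be told apart.

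Across all groups edgeR gave log2 differences of replicate 2 over replicate 1 of 0.41 for ventx1.1, 0.30 for ventx1.2, 0.42 for ventx2.1 and 0.22 for ventx2.2. Only ventx2.1 passed (adjusted p = 0.0202), against 31.9% of all genes called higher in replicate 2, and with library size in place of TMM factors it did not (0.29, adjusted p = 0.113). Over all alternative runs the difference ran from 0.07 to 0.61 for ventx1.1 and from 0.15 to 0.51 for ventx2.1. For ventx1.2 and ventx2.2 it ran from -0.02 to 0.44 and from -0.04 to 0.30. The directions for ventx1.2 and ventx2.2 turned on the TPM scale (-0.02 and -0.04 with a pseudocount of 1).

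The neighbors ventx3.1 (Xetrov90017639) and ventx3.2 (Xetrov90017637) of the same gene cluster peaked elsewhere. The level of ventx3.1 was 142.13 and 390.71 TPM in the vegetal mass, 53.85 and 137.28 ventrally, 29.1 and 42.69 laterally, 5.68 and 3.74 dorsally and 2.22 and 2.9 in the animal cap. That of ventx3.2 was 245.59 and 352.14 TPM vegetally, 117.19 and 139.41 ventrally, 42.48 and 38.39 laterally, 5.05 and 0.84 dorsally and 4.66 and 7.34 in the animal cap. They shared the low dorsal level of the ventx1 genes, but their animal level was 0.961% and 2.01% of the vegetal one, whereas the 4 other genes kept 20.8% to 53.2% of their highest regional mean there. Ventral against dorsal gave log2 differences of 4.33 for ventx3.1 (adjusted p = 0.21) and 5.40 for ventx3.2 (adjusted p = 0.0913) without the block, and both passed with it (adjusted p = 0.0055 and 0.00405). The dorsal values rest on few reads, 78 and 28 expected counts for ventx3.1 and 66 and 6 for ventx3.2. So do the animal cap values, 28 and 22 expected counts for ventx3.1 and 56 and 53 for ventx3.2.

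**Figure D5:**
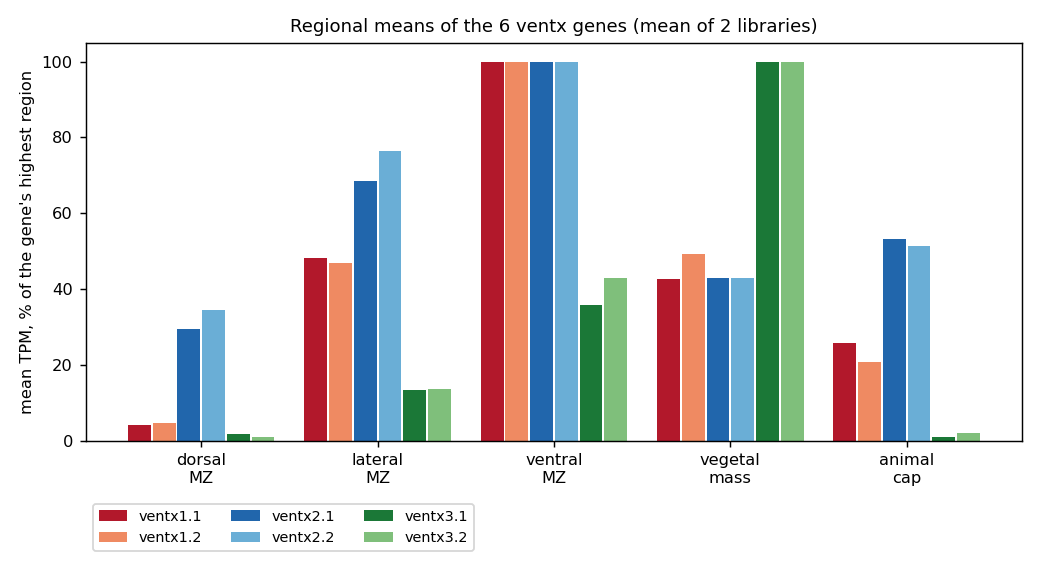
Mean TPM of 2 libraries in each region, as a percent of the gene's highest regional mean, for the 6 ventx genes (MZ, marginal zone). The ventx1 and ventx2 genes are highest in the ventral marginal zone and the ventx3 genes in the vegetal mass, and the dorsal bars are at 0.985% to 4.64% for the ventx1 and ventx3 genes against 29.4% and 34.5% for the ventx2 genes.

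Of 785 TFs with a mean of at least 1 TPM, the one most like the ventx1 genes over the 10 region libraries was msx1, a homeobox repressor also induced by Bmps. Its Pearson correlation on the log2(TPM + 1) scale, centered within each clutch, was 0.975 with ventx1.1 and 0.984 with ventx1.2, next to 0.990 between the ventx1 genes themselves. Next came smad7 (0.865), an inhibitory Smad, and nfya (0.854), a CCAAT-box binding subunit, for ventx1.1, and the homeobox gene evx1 (0.888) and the DNA repair gene rad54b (0.864) for ventx1.2. For the ventx2 genes the correlations outside the family were lower. For ventx2.1 they were smad7 (0.847), msx1 (0.846) and the retinoid X receptor gene rxrb (0.809), and for ventx2.2 msx1 (0.830), smad7 (0.829) and the ETS family gene ets2 (0.826). The correlation between ventx2.1 and ventx2.2 was 0.984, and those between members of different subgroups were 0.811 to 0.867. The libraries share 5 regions and 2 clutches, so these are descriptions.

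The level of msx1 (Xetrov90000496) was 116.43 and 138.33 TPM ventrally, 51.16 and 58.93 laterally and 3.37 and 4.59 dorsally, with 20.88 and 30.58 in the animal cap and 37.38 and 58.33 in the vegetal mass. It followed the ventx1 course in its low dorsal level and in standing higher vegetally than animally. The correlations of nfya, rad54b and rxrb rested on small changes, since the regional means of nfya ran only from 213.45 to 237.35 TPM. With ranks in place of values, msx1 stayed among the first 3 for each of the 4 genes, while smad7, nfya, evx1, rad54b and rxrb gave way to genes such as the caudal gene cdx1 and ets2. Without centering, msx1 stayed for all members, smad7 for ventx1.1 and both ventx2 genes, and evx1 for ventx1.2. The genes nfya, rad54b, rxrb and ets2 did not stay.

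Other genes of the pathway were read in ventral against dorsal from 3 lists, with ligands and antagonists not analysed here because the names came from a TF catalog. Of 8 Bmp effector genes 7 were tested and 0 passed without the block, with 1 at an unadjusted p under 0.05. DESeq2 called 1 and limma 0. Over all genes 414 of 15727 were at an unadjusted p under 0.05 in either direction. DESeq2 called 162 of 15422 and limma 34 of 15727 at a pseudocount of 1. With the block 1 rose, against the 0.432% of all genes called higher ventrally, namely smad7, from 12.64 and 9.47 TPM dorsally to 49.02 and 50.53 ventrally (blocked log2 difference 2.11, adjusted p = 0.0068). The transducing Smad gene smad1 was near even, at 473.69 and 496.79 TPM dorsally and 547.65 and 640.44 ventrally (0.22, adjusted p = 0.725 with the block). The median of the list was 0.12, against 0.01 over all genes.

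Of 20 genes known to respond to Bmps ventrally or in the epidermis, a list that includes ventx3.1 and ventx3.2, all were tested, 1 rose without the block and 14 with it, and 0 fell, where 0.0127% and 0.432% of all genes were called higher ventrally. Their median log2 difference was 2.28, with 18 genes above 0 and 2 below. Those below were gata2 (-0.68) and id4 (-0.58), and neither was called. The gene that passed in both was evx1, a ventral homeobox gene at 0.78 and 0.48 TPM dorsally and 29.14 and 34.58 ventrally (5.58, adjusted p = 0.0346). With the block msx1 (4.95, adjusted p = 1.61e-06) and the T-box repressor gene tbx3 (4.23, adjusted p = 0.00058) also rose. The ventx1 genes, at 4.50 and 4.33 with the block, stood beside these, and the ventx2 genes, at 1.68 and 1.47, beside tbx2 (1.72, adjusted p = 0.000885) and tfap2c (1.59, adjusted p = 0.0381), an AP-2 gene of the epidermis.

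Of 12 homeobox and forkhead genes of the organizer, all were tested, 2 fell without the block and 8 with it, and 0 rose, where 0.0318% and 1.02% of all genes were called lower ventrally. The median of the list was -2.40. The organizer genes gsc (-6.40) and otx2 (-5.52), a head homeobox gene, passed without the block (adjusted p = 0.0346 each). Since gsc was also the marker that checked the dorsal label, its fall is not a separate result. The gene gsc ran opposite to the ventx1 genes along the marginal zones, at 309.64 and 470.2 TPM dorsally, 41.01 and 28.3 laterally and 6.48 and 3.55 ventrally. In the vegetal mass, however, it stood at 159.54 and 262.22 TPM beside 219.5 and 356.68 TPM of ventx1.1, and in the animal cap it was at 2.03 and 0.87 beside 175.33 and 172.96.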

How the data were processed

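Expression of the 4 Ventx genes was measured by RNA-seq in 12 libraries of 6 groups with 2 clutches each. The authors aligned and quantified the reads with RSEM 1.2.12 against assembly version 9, and deposited expected counts and TPM for each gene model. RSEM shares reads among similar copies. Gene symbols came from the study's TF catalog, and the neighbor order from RefSeq, whose assembly differs. The members, lists and comparisons were chosen with earlier results of these data known.

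Rounded expected counts were tested with edgeR 4.0.16 (quasi-likelihood, robust, TMM factors, filterByExpr, R 4.3.3), over the 10 region libraries for contrasts of regions and over all 12 for the whole embryo and the clutches. P-values were adjusted by Benjamini-Hochberg across every gene in the fit and called at 0.05. No clutch term entered except in the comparison of clutches. The study's methods name 2 clutches, and the replicate numbers were taken to mark them. Same-numbered libraries deviated together (correlations 0.657 to 0.823 over 15 pairs of groups). The fit with the replicate block is therefore given beside each result it changes. Two-sided exact permutation tests of ratio slopes enumerated all assignments of the libraries with numpy 2.4.6, and scipy 1.17.1 adjusted their p-values. The text names the 4 members, the ventx3 genes, up to 5 listed genes by size among those that passed, and the 3 most correlated TFs for each member. The other listed genes named (smad1, tbx2, tfap2c, gata2, id4) were chosen after their values were seen. Alternatives were DESeq2 1.42.0, limma 3.58.1 on the log2 of TPM with a pseudocount of 1 or 0.1, library size without TMM, no filter, other sets of libraries, summed copies and leaving out each library. DESeq2 with the block and leaving out libraries with the block were added after seeing the data. The code was tested on simulated data. In fits without the replicate block, p-values measure the spread between the 2 libraries of a group, 1 from each clutch, pooled over all groups. With the block they measure what is left after the mean difference between clutches is removed. Exact p-values count assignments of libraries.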

Additional observations from a re-analysis of the deposited data

Results flagged for a closer look

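The ventx2 genes stood on opposite sides of an even ratio in the 2 clutches for both contrasts of the vegetal mass given here. The log2 TPM ratio of vegetal mass to animal cap was -0.90 in replicate 1 and 0.18 in replicate 2 for ventx2.1, and -0.59 and 0.0555 for ventx2.2. The log2 ratio of vegetal mass to dorsal marginal zone was -0.0546 and 1.05 for ventx2.1, and -0.14 and 0.79 for ventx2.2. Each value is the ratio of 1 library to 1 library, and the difference between the clutches was not tested. The ventx1 genes were higher in the vegetal mass in both clutches and both contrasts.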

How the results depend on the processing

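The direction of every ventral-against-dorsal difference of the 4 genes held under each alternative run, and the calls did not. For ventx1.1 the log2 difference passed at 4.50 with the replicate block, 4.62 in DESeq2, 4.62 with no filter, 4.71 and 4.77 in limma with pseudocounts of 1 and 0.1, 4.62 with all 12 libraries in the fit and 4.55 in DESeq2 with the block. For ventx1.2 it missed at 4.36 with the block on the 4 compared libraries alone. For ventx2.1 it passed at 1.68 with the block, 1.71 in DESeq2, 1.69 on the compared libraries and 1.68 in DESeq2 with the block, and for ventx2.2 at 1.47, 1.48, 1.48 and 1.47 under the same settings. Leaving out a library gave 4.09 to 4.84 for ventx1.2 with no block and 3.88 to 5.02 with the replicate block. For ventx2.1 it gave 1.45 to 1.95 with the block. In these fits the lone library of a group is assumed to vary like the others.

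The number of the 4 genes called ventral over dorsal was 1, and 4 with the replicate block, in DESeq2 and in DESeq2 with the block. It was 2 with no filter, with limma at either pseudocount, with all 12 libraries and on the compared libraries with the block. The number called higher over all genes moved too. In the first fits it was 2 and 68 of 15727, 44 of 15422 and 137 of 14812, in the order given. In the others it was 7 of 23676, 7 and 8 of 15727, 8 of 15848 and 110 of 14466. Ventral over lateral gave 0, but 1 in DESeq2 with the block and 4 on the compared libraries. Over all genes the numbers called higher were 0 of 15727, 13 of 12068 and 98 of 14737 in that order. Lateral over dorsal gave 0, but 3 with the block, 3 in DESeq2, 4 in DESeq2 with the block and 2 on the compared libraries. Over all genes the numbers were 0 and 24 of 15727, 23 of 15117, 62 of 15727 and 102 of 14776. Ventral over animal gave 1, but 2 with the block, 2 in DESeq2, 4 in DESeq2 with the block and 4 on the compared libraries. Over all genes the numbers were 117 and 389 of 15727, 264 of 15422, 478 of 15117 and 685 of 14422. Ventral over vegetal gave 0, but 4 with the block, 3 in DESeq2 and 4 in DESeq2 with the block. It gave 1 with no filter, in limma at pseudocounts of 1 and 0.1 and with all 12 libraries, and 4 on the compared libraries. Over all genes the first of these fits called 179 and 1991 of 15727, 623 of 15117 and 1978 of 15727. The others called 183 of 23676, 205 and 210 of 15727, 274 of 15848 and 1852 of 14571. Vegetal against animal gave 0, but 1 with the block, 1 in DESeq2 with or without it and 1 on the compared libraries. Over all genes, in either direction, edgeR called 1265 of 15727, and 6393 with the block. DESeq2 called 5909 of 15727 with the block and 2540 without it, and the compared libraries gave 4146 of 14568. Animal over dorsal gave 1, but 2 with the block, 2 in DESeq2 and 3 in DESeq2 with the block. It gave 2 with no filter, in limma at pseudocounts of 1 and 0.1, with all 12 libraries and with library size, and 3 on the compared libraries. Over all genes the first of these fits called 21, 248, 103 and 308 of 15727. The others called 30 of 23676, 59 and 37 of 15727, 34 of 15848, 35 of 15727 and 399 of 14408. Vegetal over dorsal gave 2, but 1 on the compared libraries, where 194 of 15727 and 1873 of 14613 of all genes were called higher. Whole embryo over regions gave 0, but 1 with the block and 2 in DESeq2 with the block. Over all genes these fits called 2 and 268 of 15848 and 349 of 14926 higher. Replicate 2 over replicate 1 gave 1, but 2 in DESeq2. It gave 0 with no filter, with limma at pseudocounts of 1 and 0.1, with library size and on the 10 region libraries. Over all genes the first 2 fits called 5053 and 4974 of 15848 higher. The others called 4934 of 23974, 3178 and 3137 of 15848, 4078 of 15848 and 4719 of 15727. The causes of these changes were not tested, among them the fewer degrees of freedom that fewer libraries leave. Calls of fits with a library left out are not listed, since each leaves 1 library in a group.

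The ratio slopes of 1.5, 1.61, 1.38 and 1.48 between subgroups missed the threshold under the replicate block, with libraries exchanged only within a clutch, a test that cannot reach it. Directions turned in these cases. Vegetal against animal for ventx2.1 ran from -1.004 to 0.0179 when a library was left out, turning without the vegetal library of replicate 1. Vegetal against dorsal for ventx2.1 ran from -0.182 to 0.837 (-0.0682 to 0.707 with the block) and for ventx2.2 from -0.171 to 0.478 (-0.136 to 0.429 with the block, and -0.0779 without the dorsal library of replicate 2). Replicate 2 over replicate 1 in limma was -0.0156 and -0.0235 for ventx1.2 and -0.0408 and -0.0410 for ventx2.2 at pseudocounts of 1 and 0.1. Among the members, the dorsal ventx1 values rest on the fewest reads, 108.76 to 537.28 expected counts, and the effect of depth was not tested.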
